A study of Drosophila melanogaster with 12 samples.

Results

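Cytochrome P450 genes were described in the Drosophila melanogaster ovary across 4 genotypes. They were chosen by symbol, as the genes whose platform or current symbol is Cyp followed by a family number and a lower-case subfamily letter. Of 11983 genes with a probe set naming them alone, 81 were P450 genes. A further 4, Cyp12d1-p, Cyp6t2Psi, Cyp6a15Psi and Cyp9f3, carry such a symbol in RefSeq but were not measured alone. Gene expression was measured on 12 arrays, 3 biological replicates per genotype, with RNA from about 100 pairs of ovaries each. The females were unmated and 4 to 6 h past eclosion, an age at which the labels place no egg chamber beyond stage 8. The comparison of su(Hw) mutants with wild types addresses expression before the death of mutant egg chambers at stage 9.

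As wild types the study used Canton S and BL15598, a y[1] w[67c23] stock with the P element EPgy2 inserted in CG6499[EY02782]. Both mutants carried an X chromosome with y[2], w[67c23], ct[6] and f[1]. The genotype label of Pb/2 pairs su(Hw)[e04061] with su(Hw)[2], and that of A2663/v pairs su(Hw)[A2663] with su(Hw)[2] beside the P element that BL15598 also carries. The source label of A2663/v gives the second allele as v, and the disagreement was not settled here. Canton S carries none of these listed alleles, so a mutant and a wild type also differ in strain background.

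Cytochromes P450 are haem-containing monooxygenases that insert an oxygen atom into fatty acids, steroids and foreign compounds. Most sit in the endoplasmic reticulum and take electrons from the reductase Cpr or from cytochrome b5, while the mitochondrial clan takes them from ferredoxins. In insects the CYP3 and CYP4 clans are large, often arranged in tandem gene clusters and known from insecticide metabolism, whereas the CYP2 and mitochondrial clans hold the enzymes of ecdysone synthesis, which in the adult female takes place in ovarian follicle cells. Those Halloween enzymes have names of their own and are treated below as a pathway list, not as members.

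The su(Hw) transcript had a mean log2 signal of 9.21 ± 0.09 (SD, n = 3) in Canton S, 8.89 ± 0.13 in BL15598, 2.56 ± 0.07 in A2663/v and 2.94 ± 0.42 in Pb/2. Correlations over tested genes ran from 0.963 to 0.995 within a genotype and from 0.910 to 0.979 between genotypes. Between 37.4% and 38.6% of probe sets exceeded log2 5 on each array, the level used here as the floor of measurement. All 9 measured germline markers were over the floor, with a mean of log2 10.05 to 10.25 per array, and 5 of 7 follicle cell markers were tested while tj and slbo stayed under the floor. On 4 arrays, A2663/v replicates 1 and 3 and Pb/2 replicates 1 and 2, gut digestive enzyme genes stood apart from the rest. The mean log2 signal of the 8 tested digestive genes was 6.54 to 7.59 there and 2.29 to 4.50 on the other 8 arrays. The P450 genes called in a mutant are given below with and without them.

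Most P450 genes gave no signal above the floor in these ovaries. Of the 81, 57 stayed under log2 5 on all 12 arrays, with values from 2.01 to 4.77, and 50 of these never reached log2 4. Those under the floor included Cyp4d21, known as sxe1 for its male-biased expression, at 2.49 to 2.61, and Cyp303a1, needed for bristle development, at 2.26 to 2.33. Cyp301a1, which acts in cuticle formation, came nearer the floor at 2.48 to 4.05. Another 3 genes, Cyp6a22, Cyp9c1 and Cyp28d1, passed the floor on a single array each. Ovary expression was taken as a signal over the floor on all 3 arrays of at least 1 genotype. This held for 19 P450 genes, 23.5% of the 81, against 50.5% of all genes.

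**Figure D1:**
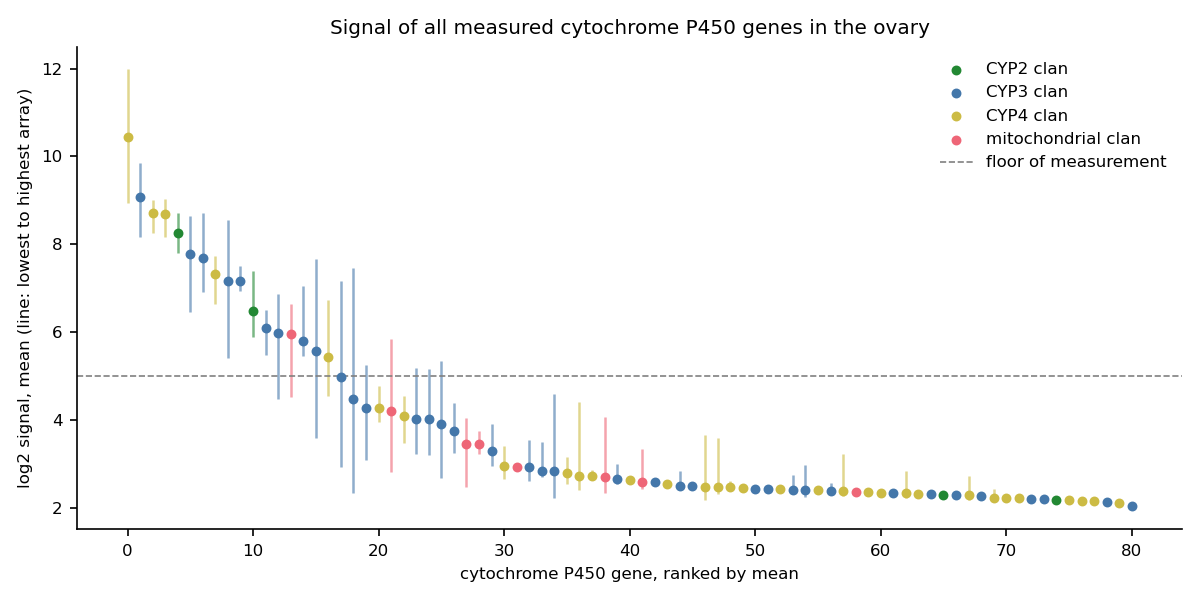
Log2 signal of the 81 P450 genes, ordered by the mean over 12 arrays. Points are means coloured by clan, vertical lines run from the lowest to the highest array, and the dashed line is the floor at log2 5. The order is of probe set signal, not of transcript abundance, since probe sets differ in response. Most genes lie under the floor, 50 of them below log2 4 on every array.

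The 19 expressed genes were spread unevenly over clans and chromosome arms. The CYP3 clan held 11 of its 37 members among them, namely Cyp6a9, Cyp6a13, Cyp6a17, Cyp6a19, Cyp6a20, Cyp6a23, Cyp6d5, Cyp6t1, Cyp6u1, Cyp6v1 and Cyp9f2. The CYP4 clan held 5 of 32, namely Cyp4e2, Cyp4g1, Cyp4g15, Cyp313a4 and Cyp318a1. The CYP2 clan held Cyp18a1 and Cyp305a1 of 4 members, and the mitochondrial clan held Cyp12b2 of 8. By location, 0 of 13 genes on 2L, 9 of 33 on 2R, 1 of 6 on 3L, 3 of 15 on 3R and 6 of 14 on the X were expressed. These shares are descriptions of small counts and were not tested.

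Expression was also set against tandem arrangement. Of the P450 genes, 48 lay in 17 groups in which neighbours had at most 1 gene between them in RefSeq order, and 45 of these were measured. In 11 of the 17 groups no measured gene was expressed. Among these was the pair Cyp12d1-p and Cyp12d1-d, although a probe set naming both, given below, was over the floor on every mutant array. Of the grouped genes 10 of 45 were expressed, and of the other P450 genes 9 of 36. A single run of 9 Cyp genes on 2R, described below, supplied 5 of the 10.

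The filter for testing, over log2 5 on at least 3 of 12 arrays, kept 21 P450 genes, which is 25.9% of the 81 against 51.4% of all genes. They were the 19 expressed genes, Cyp6g1 and Cyp12a4. Between 16 and 20 of the 81 lay over the floor on any array, and 13 did so on all 12 arrays. The SD within a genotype of the expressed P450 genes ran from 0.01 to 1.76 log2 units with a median of 0.21, against a median of 0.12 over all tested genes. The most variable was Cyp6d5 in A2663/v.

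**Figure D2:**
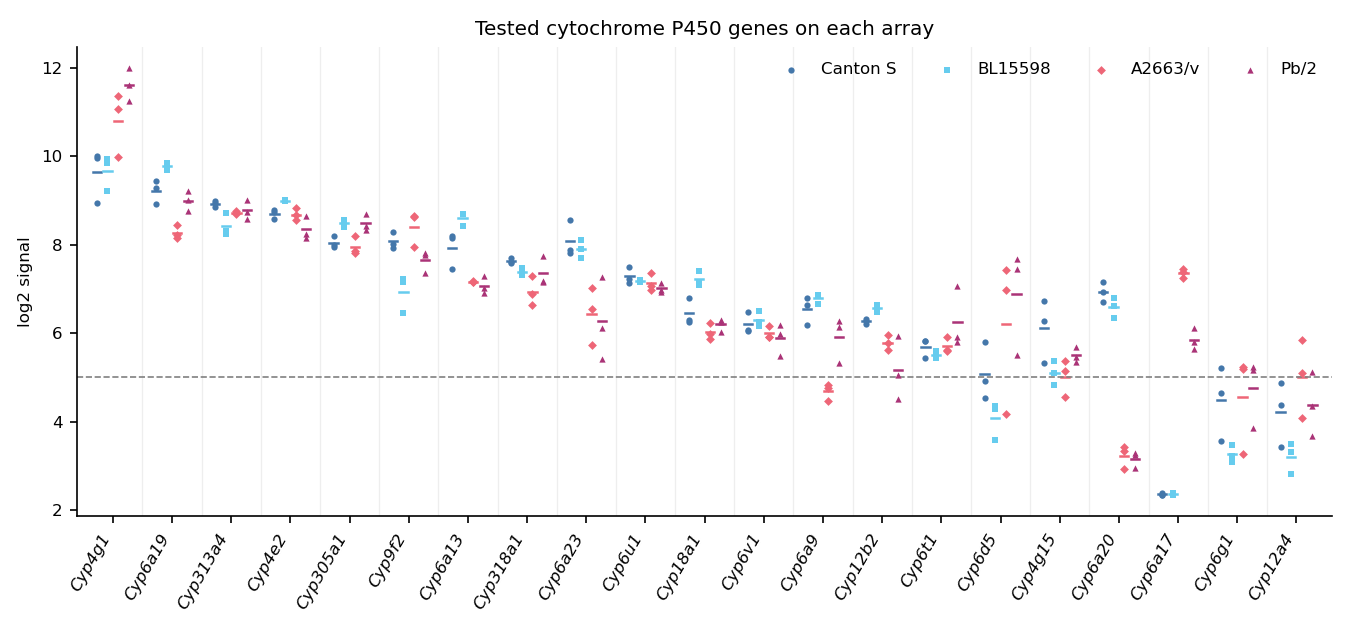
Log2 signal of the 21 tested P450 genes on each of the 12 arrays. Points are arrays, short horizontal lines are genotype means (n = 3) and the dashed line is the floor at log2 5. Cyp6a17 is under the floor on every wild-type array and over it on every mutant array, and Cyp6a20 shows the opposite.

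Against the mean of the wild types, 7 of the 21 tested P450 genes differed in the mean of the mutants at an adjusted p under 0.05 (limma with Benjamini-Hochberg adjustment over 6163 genes) and at least 2-fold. The share of all tested genes called was 5.83%. Cyp6a17, Cyp6d5 and Cyp4g1 were higher, with 3.98% of all genes called higher, and Cyp6a20, Cyp6a23, Cyp6a9 and Cyp6a13 were lower, with 1.85% of all genes called lower. Without a minimum fold, 14 of the 21 passed, 5 higher and 9 lower, against 46.9% of all genes, 20.3% higher and 26.6% lower. Cyp6a17 and Cyp12a4 passed the filter through mutant arrays alone and Cyp6a20 through wild-type arrays alone. Cyp6d5 and Cyp6g1, each with 1 wild-type array over the floor, passed it only because of mutant arrays. For all of these genes, entry into the test depended on the difference. The median change of the 21 was -0.31 on the log2 scale and their median absolute change 0.79, against -0.03 and 0.19 over all tested genes. In whole ovaries, fewer cells of a type and less RNA per cell cannot be told apart.

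**Figure D3:**
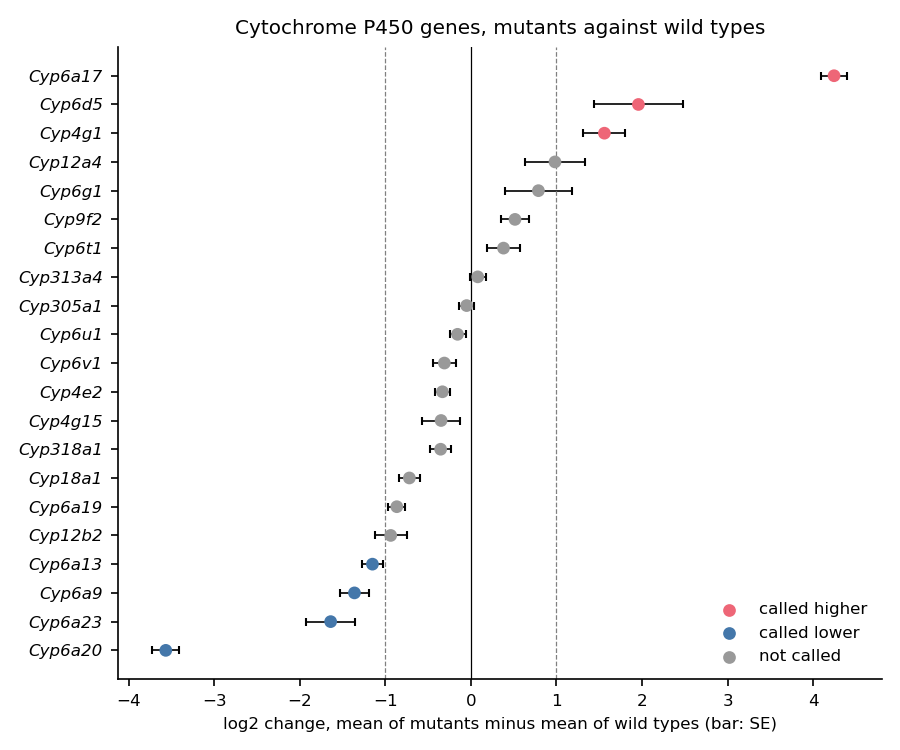
Log2 change of the 21 tested P450 genes, mean of mutants minus mean of wild types. Points are estimates, bars are standard errors, dashed lines mark 2-fold, and colours mark the 3 genes called higher and the 4 called lower. No wild-type array had Cyp6a17 or Cyp12a4 over the floor and no mutant array Cyp6a20, so their values depend on how background was set.

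A call in the same direction in all 4 pairs of a mutant and a wild type, which share arrays with each other, was made for 4 of the 21 genes, against 2.11% of all genes. Cyp6a17 and Cyp4g1 were higher in all 4 pairs (1.28% of all genes) and Cyp6a20 and Cyp6a23 lower (0.828%). By pair, 11 P450 genes were called in A2663/v minus BL15598 (7.43% of all genes), 6 in A2663/v minus Canton S (5.76%), 9 in Pb/2 minus BL15598 (7.67%) and 5 in Pb/2 minus Canton S (5.74%). For 21 tested genes these counts are small. For 5 P450 genes every mutant array lay on the same side of every wild-type array, Cyp6a17 above and Cyp6a20, Cyp6a23, Cyp6a13 and Cyp12b2 below, while 13.7% of all genes showed such a gap, 5.35% above and 8.31% below.

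Without the 4 arrays with digestive enzyme signal, 5 P450 genes remained called in mutants minus wild types, Cyp6a17 higher and Cyp6a20, Cyp6a23, Cyp6a9 and Cyp6a13 lower, against 5.11% of all genes. A2663/v is then replicate 2 alone and Pb/2 replicate 3 alone, and a lone array is assumed to vary like the other groups. Cyp4g1 and Cyp6d5 lost their calls, as given with each gene below. In all 4 pairs, Cyp6a17, Cyp6a20 and Cyp6a23 stayed called, Cyp4g1 dropped out and Cyp6a9 came in.

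Of the 7 calls, 4 fell in the largest tandem group, 9 P450 genes on 2R with no other gene between them. In RefSeq order these are Cyp6a22, Cyp6a17, Cyp6a23, Cyp6a19, Cyp6a9, Cyp6a20, Cyp6a21, Cyp6a8 and Cyp317a1. Next to each other lay a gene that was higher in the mutants, Cyp6a17, and one that was lower, Cyp6a23, and Cyp6a9 and Cyp6a20 further on were also lower. Of the 16 tested P450 genes elsewhere, 1 was called lower and 2 higher. The cluster is described gene by gene in that order.

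**Figure D4:**
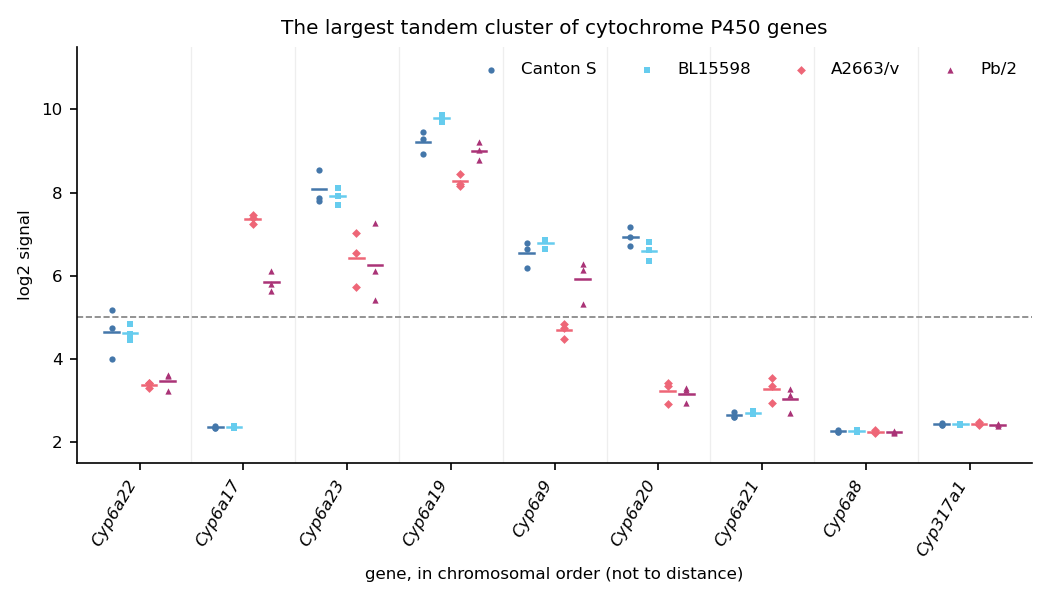
Log2 signal of the 9 neighbouring P450 genes on 2R, in chromosomal order and not to distance. Points are arrays, short lines genotype means (n = 3), and the dashed line is the floor at log2 5. Cyp6a17 is seen in the mutants, Cyp6a20 in the wild types, and Cyp6a21, Cyp6a8 and Cyp317a1 stay under the floor.

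Cyp6a22 passed the floor on 1 Canton S array and was not tested. Its signal was 4.74, 5.18 and 4.01 in Canton S, 4.45, 4.59 and 4.84 in BL15598, 3.29, 3.42 and 3.42 in A2663/v and 3.23, 3.61 and 3.60 in Pb/2. All 6 mutant arrays lay below all 6 wild-type arrays, at values that GCRMA sets close to background.

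Cyp6a17, known for a role in temperature preference, was seen in mutant ovaries alone. It gave 2.35, 2.34 and 2.38 in Canton S and 2.35, 2.39 and 2.37 in BL15598, which is background on these arrays. In A2663/v it reached 7.46, 7.38 and 7.26, and in Pb/2 5.80, 5.64 and 6.12. The 4 groups fell into 3 separate levels, with the wild types together, Pb/2 above them and A2663/v highest. The mean of the mutants was at least 3.05-fold higher with values under log2 5 raised to 5, and the fit on the deposited values gave an adjusted p of 1.38e-10 for a gene that passed the filter through the mutant arrays alone. It was at least 5.16-fold in A2663/v and at least 1.81-fold in Pb/2 against either wild type, so that the Pb/2 calls end when low values are raised to the floor. With the 4 digestive-signal arrays left out the log2 change was 4.39, against 4.25 with all arrays.

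Cyp6a23, the next gene and a close relative of Cyp6a17, fell in the mutants by 1.64 on the log2 scale (SE 0.28, adjusted p = 0.000435), which is 3.12-fold. Its signal was 7.81, 7.88 and 8.55 in Canton S, 8.11, 7.91 and 7.71 in BL15598, 6.56, 5.73 and 7.02 in A2663/v and 6.11, 7.28 and 5.41 in Pb/2. The groups did not overlap, although the highest Pb/2 array came within 0.5 log2 units of the lowest wild-type array. The mutant arrays spread widely, with SDs of 0.65 and 0.94 against 0.41 and 0.20 in the wild types. The change was -1.47 and -1.64 for A2663/v against BL15598 and Canton S, and -1.64 and -1.81 for Pb/2. Without the digestive-signal arrays the change in the mean of the mutants was -2.42, and in the 4 pairs it ran from -2.17 to -2.67, all called. Cross-hybridisation between Cyp6a17 and Cyp6a23 was not tested in either direction.

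Cyp6a19 differed between genotypes in smaller steps. It gave 9.29, 9.45 and 8.93 in Canton S, 9.70, 9.86 and 9.82 in BL15598, 8.17, 8.46 and 8.21 in A2663/v and 9.21, 9.01 and 8.78 in Pb/2. BL15598 was highest, A2663/v lowest, and Pb/2 overlapped Canton S. The change of -0.87 ± 0.10 (SE, adjusted p = 1.36e-05) in the mean of the mutants stayed under 2-fold. The gene was called lower in A2663/v minus BL15598 (log2 change -1.51, adjusted p = 2.58e-06), and for Pb/2 against Canton S the value was -0.22. Without the digestive-signal arrays the A2663/v call held at -1.33 (adjusted p = 0.00205).

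With all arrays, Cyp6a9 fell mainly in A2663/v. It gave 6.19, 6.63 and 6.80 in Canton S, 6.86, 6.65 and 6.85 in BL15598, 4.48, 4.75 and 4.84 in A2663/v and 6.14, 6.29 and 5.32 in Pb/2. A2663/v lay under the floor and apart from all other arrays, whereas Pb/2 overlapped Canton S. The mutants were lower by -1.36 ± 0.17 (SE, log2, adjusted p = 2.78e-05), or -1.21 with values under log2 5 raised to 5. A2663/v was at least 3.46-fold lower than BL15598 and at least 2.91-fold lower than Canton S, while Pb/2 was not called against either, with log2 changes of -0.87 and -0.62. Without the digestive-signal arrays the A2663/v changes were -2.03 and -1.79, and that in the mean of the mutants -1.63. Pb/2 was then replicate 3 alone, its lowest array at 5.32, and Cyp6a9 was called in all 4 pairs. Pb/2 lay 0.57 above A2663/v in that setting, against 1.23 with all arrays.

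Cyp6a20, known for its link to aggression in males, was seen in wild-type ovaries alone. It gave 7.17, 6.71 and 6.93 in Canton S, 6.81, 6.62 and 6.35 in BL15598, 2.92, 3.42 and 3.34 in A2663/v and 3.29, 2.95 and 3.25 in Pb/2. The wild types overlapped each other, the mutants overlapped each other, and a wide gap lay between. The mutants were at least 3.40-fold lower with values under log2 5 raised to 5, at least 3.02-fold against BL15598 and at least 3.83-fold against Canton S. The fit on the deposited values gave an adjusted p of 1.01e-09 for a gene that passed the filter through the wild-type arrays alone. The call in the mean of the mutants held under every alternative run, with a log2 change of -3.43 without the digestive-signal arrays, -3.57 with them and -1.76 with low values raised to the floor.

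The last 3 genes of the cluster had no signal above the floor. Cyp6a21 had means of 2.65 in Canton S, 2.71 in BL15598, 3.28 in A2663/v and 3.04 in Pb/2. Cyp6a8 stayed between 2.22 and 2.30 on all arrays and Cyp317a1 between 2.38 and 2.49. Of the 5 genes on each side of the cluster, 6 were tested and 1 was called, Ciao1, a component of cytosolic iron-sulphur cluster assembly, with a log2 change of -1.05 ± 0.06 (SE, adjusted p = 7.26e-09) in mutants minus wild types. It was not called in all 4 pairs. HPS1, CG33506, Pcf11, Kank and Lap1 were not called, with log2 changes from -0.41 to 0.43.

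Outside the cluster, Cyp6a13 was the other P450 gene called lower. It gave 8.20, 8.16 and 7.45 in Canton S, 8.69, 8.70 and 8.43 in BL15598, 7.15, 7.17 and 7.18 in A2663/v and 6.92, 7.30 and 7.01 in Pb/2. Both mutants lay below both wild types, and BL15598 lay above Canton S. The change was -1.15 ± 0.12 (SE, log2, adjusted p = 8.05e-06), a 2.22-fold difference, and -1.18 without the digestive-signal arrays. It was called against BL15598, at -1.44 in A2663/v and -1.53 in Pb/2 (-1.44 and -1.59 without those arrays, both called), and stayed under 2-fold against Canton S, at -0.77 and -0.86.

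Cyp12b2 was the only mitochondrial clan gene expressed by a probe set naming it alone. It had values of 6.27, 6.31 and 6.22 in Canton S, 6.57, 6.65 and 6.49 in BL15598, 5.79, 5.96 and 5.63 in A2663/v and 4.52, 5.06 and 5.93 in Pb/2. All mutant arrays lay below all wild-type arrays, and Pb/2 spread over more than a log2 unit. The change of -0.94 ± 0.19 (SE, adjusted p = 0.00119) was under 2-fold in the mean of the mutants, and reached -1.13 and a call without Pb/2 replicate 3. Pb/2 alone was called, at -1.40 against BL15598 (adjusted p = 0.000992) and -1.10 against Canton S (adjusted p = 0.0073). Pb/2 replicate 1 decides the size of the latter, which was -0.77 without it. Without the digestive-signal arrays Pb/2 is replicate 3 alone, and these changes were -0.64 and -0.34, with no call.

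Cyp4g1, the oxidative decarbonylase that makes cuticular hydrocarbons in oenocytes, rose 2.95-fold in the mean of the mutants (log2 change 1.56 ± 0.25, SE, adjusted p = 0.000219). Its signal was 9.98, 8.95 and 10.01 in Canton S, 9.85, 9.22 and 9.94 in BL15598, 11.07, 9.996 and 11.38 in A2663/v and 11.63, 11.99 and 11.25 in Pb/2. All Pb/2 arrays lay above every wild-type array, and A2663/v replicate 2 lay among the wild types. The log2 change was 1.14 and 1.17 in A2663/v against BL15598 and Canton S (adjusted p = 0.0188 and 0.0242), and 1.95 and 1.98 in Pb/2 (adjusted p = 0.000686 and 0.000894).

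The A2663/v calls of Cyp4g1 rested on single arrays. Against Canton S the log2 change was 0.82 without Canton S replicate 2 (adjusted p = 0.112), 1.04 without A2663/v replicate 1 (adjusted p = 0.0866) and 0.89 without A2663/v replicate 3 (adjusted p = 0.107). Against BL15598 it was 0.91 without BL15598 replicate 2, 1.01 without A2663/v replicate 1 and 0.86 without A2663/v replicate 3 (adjusted p = 0.0665 to 0.09). The call was lost each time, and with it the call in all 4 pairs. Without the 4 digestive-signal arrays the change in the mean of the mutants was 0.97 (adjusted p = 0.0405), under 2-fold. Of the mutants, A2663/v then gave 0.32 and 0.35 with no call, and Pb/2 gave 1.58 and 1.61 and remained called.

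Markers of oenocytes, the cells in which Cyp4g1 is best known, moved with it in part. Of 6 oenocyte genes on the array, 2 were tested and 3 stayed under the floor on all arrays. FASN3, a fatty acid synthase, rose by 1.22 ± 0.21 (SE, log2, adjusted p = 0.000396), with means of 6.26 in Canton S, 6.26 in BL15598, 6.95 in A2663/v and 8.00 in Pb/2. The other tested gene, the desaturase Desat1, had a log2 change of -0.28. FASN2, eloF and Fad2, which are more restricted genes of this list, had no array over the floor, and CG18609 passed it on Pb/2 replicate 2 alone. The mean log2 of the 6 genes was 4.52 to 4.74 in Canton S, 4.59 to 4.73 in BL15598, 4.59 to 5.16 in A2663/v and 4.96 to 5.93 in Pb/2. The part of oenocytes in the Cyp4g1 result was not tested.

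Cyp4g15, the other expressed gene of that subfamily, differed mainly between Canton S on 1 side and BL15598 and A2663/v on the other. It gave 6.29, 6.73 and 5.32 in Canton S, 5.11, 5.37 and 4.84 in BL15598, 4.55, 5.14 and 5.36 in A2663/v and 5.47, 5.69 and 5.34 in Pb/2. Canton S was highest but its replicate 3 overlapped all other genotypes. Against Canton S, Pb/2 had a log2 change of -0.61 (adjusted p = 0.168), with no call. The mutants as a mean did not pass the test, with a log2 change of -0.35 (adjusted p = 0.221), while A2663/v was called lower than Canton S, at -1.10 (adjusted p = 0.0213). The latter was -1.01, -0.79 and -0.86, with no call, without Canton S replicate 1, Canton S replicate 2 or A2663/v replicate 1, and -0.97 (adjusted p = 0.258) without the digestive-signal arrays.

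Of the 3 tested genes best known from responses to foreign compounds, Cyp6d5, Cyp6g1 and Cyp12a4, Cyp6d5 alone was called in the mean of the mutants. Cyp6d5, inducible by compounds such as caffeine, gave 4.53, 4.92 and 5.81 in Canton S, 4.35, 4.29 and 3.59 in BL15598, 7.43, 4.18 and 6.99 in A2663/v and 7.46, 7.67 and 5.52 in Pb/2. The 4 arrays with digestive enzyme signal had the 4 highest values, A2663/v replicate 2 lay below all of Canton S, and Pb/2 replicate 3 lay below Canton S replicate 3. The log2 change of 1.96 ± 0.52 (SE, adjusted p = 0.00745) was 1.54 with values under log2 5 raised to 5. It was 0.27 without those 4 arrays (adjusted p = 0.604). Against BL15598, which lay under the floor throughout, Pb/2 was at least 3.68-fold higher. A2663/v was 2.77-fold higher with the raised values, which is no lower bound because its replicate 2 was raised too. Without the 4 arrays neither was called, at log2 changes of 0.10 in A2663/v and 1.44 in Pb/2. The A2663/v call was ended by 11 of 25 alternatives, among them leaving out any BL15598 array, A2663/v replicate 1 (log2 change 1.51) or A2663/v replicate 3 (1.73).

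Cyp6g1, the gene of DDT resistance, gave 4.66, 3.57 and 5.22 in Canton S, 3.46, 3.23 and 3.10 in BL15598, 5.19, 3.27 and 5.24 in A2663/v and 5.17, 5.24 and 3.86 in Pb/2. It passed the floor on the 4 digestive-signal arrays and on Canton S replicate 3. The mutants as a mean did not differ past the threshold, with a log2 change of 0.79 (adjusted p = 0.115), which was -0.31 without the 4 arrays. It was called at 1.11 without A2663/v replicate 2 and at 1.01 without Pb/2 replicate 3. Pb/2 was called above BL15598 at a log2 change of 1.49 on the deposited values (adjusted p = 0.0441). With values under log2 5 raised to 5, Pb/2 replicate 3 among them, the change was 0.14, which is 1.10-fold. Without the 4 arrays it was 0.60, and there was no call either time. In all, 12 of 24 alternatives ended this call, among them leaving out any BL15598 array, Canton S replicate 1, Pb/2 replicate 1 or Pb/2 replicate 2.

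Cyp12a4, known for resistance to the insect growth regulator lufenuron, gave 4.37, 3.43 and 4.88 in Canton S, 3.50, 3.32 and 2.81 in BL15598, 5.11, 4.09 and 5.85 in A2663/v and 4.35, 5.13 and 3.67 in Pb/2. It passed the floor on 3 of the 4 digestive-signal arrays. A2663/v was called above BL15598 at a log2 change of 1.80 on the deposited values (adjusted p = 0.0111). The call ended with values under log2 5 raised to 5, A2663/v replicate 2 among them, at 0.32, which is 1.25-fold. It also ended without the 4 arrays, at 0.88 (adjusted p = 0.274), and without A2663/v replicate 3, at 1.39 (adjusted p = 0.0574). The log2 change in the mean of the mutants was 0.98 (adjusted p = 0.0353), just under 2-fold, 0.18 with the raised values and 0.16 without the 4 arrays. It became a call, at 1.05 to 1.21, on leaving out Canton S replicate 3, BL15598 replicate 1, Pb/2 replicate 3 or A2663/v replicate 2.

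**Figure D5:**
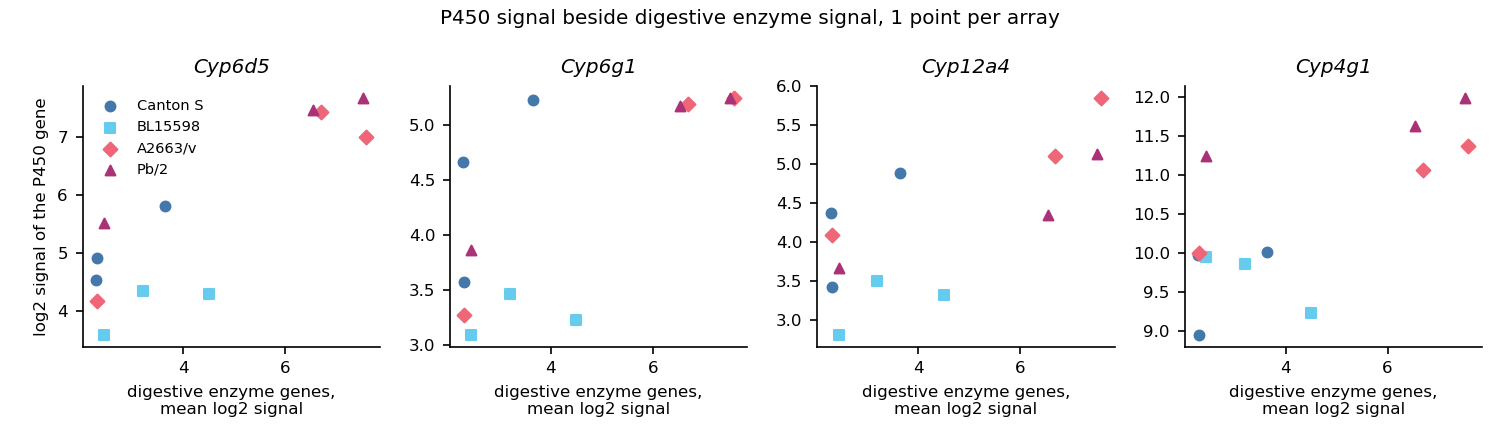
Log2 signal of Cyp6d5, Cyp6g1, Cyp12a4 and Cyp4g1 (y axes) against the mean log2 signal of the 8 tested digestive enzyme genes (x axes), 1 point per array. Colours and shapes mark genotypes. The 4 mutant arrays at the right carry the highest Cyp6d5 values, and Pb/2 replicate 3, at the left, keeps a high Cyp4g1 value.

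The digestive list has 26 genes, of which 19 were on the array, 8 were tested and 5 stayed under the floor everywhere. On the 3 Canton S arrays 0, 0 and 3 of the 19 were over the floor, and on the BL15598 arrays 1, 3 and 0. The A2663/v arrays had 10, 0 and 10, and the Pb/2 arrays 6, 11 and 0. The mean log2 over the 19 genes was 2.20 to 2.81 in Canton S, 2.29 to 3.24 in BL15598, 2.22 to 5.12 in A2663/v and 2.28 to 5.39 in Pb/2. In mutants minus wild types 5 of the 8 tested were called higher.

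Fat body and Malpighian tubule, which express many detoxifying P450 genes, were also looked at. Of 6 measured fat body markers, among them Fad2, which is also in the oenocyte list, 4 were tested. None was called in mutants minus wild types, but 2 were lower in A2663/v minus BL15598 (Fbp2 at -1.43 and Fbp1 at -1.35), 1 in A2663/v minus Canton S (Fbp2 at -1.47), and both were higher in Pb/2 than in A2663/v, by 1.70 and 1.18. The mean log2 of the 6 was 5.68 to 6.39 in Canton S, 5.91 to 6.19 in BL15598, 5.37 to 5.92 in A2663/v and 6.06 to 6.57 in Pb/2. Of 6 Malpighian tubule markers 1 was tested and 3 stayed under the floor on all arrays. The mean log2 of the latter list was 4.03 to 4.70 in Canton S, 3.97 to 4.01 in BL15598, 3.98 to 5.10 in A2663/v and 4.27 to 5.13 in Pb/2. The part of gut or of these tissues in the P450 results was not tested.

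Cyp18a1, which inactivates ecdysteroids, was highest in BL15598. It gave 6.30, 6.26 and 6.81 in Canton S, 7.09, 7.16 and 7.40 in BL15598, 5.88, 6.24 and 5.99 in A2663/v and 6.30, 6.26 and 6.04 in Pb/2. All BL15598 arrays lay above all others, A2663/v lay just below Canton S, and Pb/2 overlapped both. The mutants were lower by -0.72 ± 0.12 (SE, log2, adjusted p = 0.000323), under 2-fold. Against BL15598 the change was called at -1.18 in A2663/v and -1.02 in Pb/2, and against Canton S it was -0.42 and -0.26 with no call. The Pb/2 call was lost at -0.93 without BL15598 replicate 3 and at -0.94 without Pb/2 replicate 3. Without the digestive-signal arrays the A2663/v change was -0.98, with no call, and the Pb/2 change -1.18, still called. A second probe set of the gene, which is not the brightest, stayed under the floor at 2.50 to 4.43.

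Cyp305a1, the other expressed member of the CYP2 clan, gave 8.21, 7.99 and 7.95 in Canton S, 8.57, 8.52 and 8.41 in BL15598, 8.21, 7.86 and 7.81 in A2663/v and 8.34, 8.43 and 8.70 in Pb/2. BL15598 and Pb/2 lay together above Canton S and A2663/v. The mutants as a mean had a log2 change of -0.05 (adjusted p = 0.675). Pb/2 exceeded A2663/v by 0.53 (adjusted p = 0.0214) and BL15598 exceeded Canton S by 0.45 (adjusted p = 0.0206), both under 2-fold.

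Cyp9f2 was lowest in BL15598. It gave 8.30, 8.03 and 7.94 in Canton S, 7.16, 7.22 and 6.45 in BL15598, 8.63, 7.95 and 8.65 in A2663/v and 7.81, 7.78 and 7.37 in Pb/2. Every BL15598 array lay below every array of the other genotypes. A2663/v was called above BL15598, at 1.47 (adjusted p = 0.000208) and at 1.01 without the digestive-signal arrays (adjusted p = 0.045), and its log2 change against Canton S was 0.32. Pb/2 gave 0.71 and -0.44 against the same wild types, with no call.

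The remaining 6 tested P450 genes were called in none of the 7 comparisons. Cyp313a4 gave 8.99, 8.95 and 8.86 in Canton S, 8.72, 8.25 and 8.30 in BL15598, 8.70, 8.76 and 8.72 in A2663/v and 8.75, 8.59 and 9.02 in Pb/2. Cyp4e2 gave 8.78, 8.75 and 8.59 in Canton S, 9.02, 9.00 and 8.98 in BL15598, 8.68, 8.55 and 8.83 in A2663/v and 8.16, 8.65 and 8.25 in Pb/2. These genes varied by less than a log2 unit over all arrays, with BL15598 at the low end for the first and the high end for the second. The log2 change in the mean of the mutants was 0.08 for Cyp313a4 and -0.33 for Cyp4e2 (adjusted p = 0.501 and 0.0066). Genotype means ran from 6.94 to 7.64 for Cyp318a1, from 7.02 to 7.29 for Cyp6u1, from 5.88 to 6.30 for Cyp6v1 and from 5.51 to 6.26 for Cyp6t1. Their log2 changes in the mean of the mutants were -0.35, -0.16, -0.31 and 0.38, of which the first passed the test on p alone (adjusted p = 0.0303). A probe set naming both shn and Cyp6v1 was left out of the tests because it cannot be given to either. It had means of 7.96 in Canton S, 6.32 in BL15598, 7.01 in A2663/v and 6.22 in Pb/2. Together with Cyp305a1, 7 of the 21 tested genes were called nowhere and 14 in at least 1 comparison.

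Between the wild types, which differ in strain and not in su(Hw), 2 P450 genes were called, both lower in BL15598, against 5.09% of all genes called and 3.08% called lower. Cyp9f2 differed by -1.15 ± 0.22 (SE, log2, adjusted p = 0.0022) and Cyp4g15 by -1.01 ± 0.32 (adjusted p = 0.0333). The Cyp9f2 difference was -0.90 without BL15598 replicate 3, under 2-fold. That of Cyp4g15 lost its call in 12 of 24 alternatives, with adjusted p from 0.00251 to 0.133, among them leaving out Canton S replicate 1, Canton S replicate 2 or any BL15598 array. Under 2-fold, BL15598 was higher for Cyp18a1 by 0.76, for Cyp6a13 by 0.67, for Cyp6a19 by 0.57 and for Cyp305a1 by 0.45, and Cyp313a4 differed by -0.51 (adjusted p = 0.00518 to 0.0206 for these 5). The median absolute change of the 21 genes was 0.34, against 0.19 over all genes. Cyp6a17 and Cyp6a20 were called neither way between the wild types, with means of 2.36 and 2.37 for Cyp6a17 and of 6.94 and 6.59 for Cyp6a20.

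Between the mutants, 2 P450 genes were called, against 2.09% of all genes. Cyp6a9 was higher in Pb/2 by 1.23 ± 0.24 (SE, log2, adjusted p = 0.00546), which is at least 1.89-fold with A2663/v under the floor, and Cyp6a17 was lower by -1.51 ± 0.22 (adjusted p = 0.000611). Both lie in the 2R cluster, whose Cyp6a19 was higher in Pb/2 by 0.72 (adjusted p = 0.00533), under 2-fold. Without the digestive-signal arrays, which leaves 1 array of each mutant, the differences were 0.57 (adjusted p = 0.658) for Cyp6a9 and -1.26 (adjusted p = 0.143) for Cyp6a17. Follicle cell markers also differed among the genotypes, in opposite directions. In Pb/2 minus A2663/v 1 of 5 tested was called, higher in Pb/2, and the list median was 0.98 against -0.05 over all genes. In mutants minus wild types 2 of 5 tested were lower, the yolk protein genes Yp2 at -1.30 and Yp3 at -1.37, and mirr was higher at 1.22. In A2663/v minus BL15598 Yp1, Yp2 and Yp3 were lower, at -1.41, -2.77 and -2.25, and mirr higher at 2.73. In A2663/v minus Canton S 3 of the 5 tested were lower, mirr among them, with a list median of -1.27. Between the wild types mirr alone was called, with means of 8.40 in Canton S and 4.41 in BL15598. Its means in the mutants were 7.13 in A2663/v and 8.11 in Pb/2, above BL15598 but below Canton S. The mean log2 of the 7 genes was 7.77 to 8.11 in Canton S, 7.76 to 7.88 in BL15598, 7.06 to 7.60 in A2663/v and 7.52 to 8.11 in Pb/2, and their part in the P450 differences was not tested. Of 7 haemocyte markers 4 were tested, and in mutants minus wild types Pxn was higher at 2.69 and NimC1 lower at -1.45. Pxn had means of 6.49 in Canton S, 4.30 in BL15598, 8.17 in A2663/v and 7.99 in Pb/2. NimC1 had means of 6.60 in Canton S, 5.19 in BL15598, 4.70 in A2663/v and 4.19 in Pb/2. No haemocyte marker was called lower in either mutant against BL15598, and 2 were lower in BL15598 than in Canton S. The mean log2 of the haemocyte list was 5.61 to 5.86 in Canton S, 4.65 to 5.07 in BL15598, 5.33 to 5.44 in A2663/v and 5.20 to 5.52 in Pb/2, and its part was likewise not tested.

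Genes listed as electron transfer partners of the P450 enzymes were described together. Of 6 electron transfer partners 4 were tested and 0 called in mutants minus wild types. Cytochrome b5 (Cyt-b5) had means of 10.45 in Canton S, 10.70 in BL15598, 10.47 in A2663/v and 10.51 in Pb/2. Its reductase Cyt-b5-r had a log2 change of 0.68 ± 0.15 (SE, adjusted p = 0.0022) and the ferredoxin Fdx2 one of -0.55 ± 0.07 (adjusted p = 2.97e-05), both under 2-fold. In Pb/2 minus BL15598 these were called at 1.02 and -1.07. The reductases Cpr and dare had no probe set of their own.

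Of 7 measured Halloween genes, which make ecdysone, nvd, sro and spo were tested and 0 were called. Of the 7, spo, spok, dib, sad and shd are P450 genes by function. The signal of spo was over the floor on all arrays. Its means were 6.48 in Canton S, 6.84 in BL15598, 6.20 in A2663/v and 6.43 in Pb/2. The hydroxylase genes dib and sad were too low to test. In the same order, their means were 2.81, 4.995, 2.70 and 2.69 for dib and 3.56, 5.02, 2.96 and 3.30 for sad. The genes spok and shd stayed under the floor on all arrays. For spo, dib and sad, BL15598 was highest, as for Cyp18a1. Of 8 xenobiotic response regulators 5 were tested and 0 called. The log2 change of maf-S, a partner of the stress factor Cnc, was 0.83 ± 0.06 (SE, adjusted p = 2.6e-07), and it was called in A2663/v minus Canton S at 1.02. Of 6 haem synthesis genes on the array 5 were tested and 0 called. The medians of the 4 lists were -0.13, 0.06, 0.21 and -0.08 in the order given, against -0.03 over all genes.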

How the data were processed

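Ovary RNA of 4 genotypes was measured on 12 arrays, 3 biological replicates each. The deposited values are log2 signals, made by the authors with Partek 6.5 and GCRMA per the submitters' processing notes. GCRMA subtracts a background predicted from probe sequence and pulls unexpressed probe sets to a narrow low range, so differences under log2 5, the floor used here, depend on it. Arrays have no sequencing depth, and 3 per genotype limit the precision. Per the labels' protocols, 50 ng of RNA was amplified to cDNA before labelling.

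Probe sets naming 1 gene were kept, symbols were updated through RefSeq (Release 6 plus ISO1 MT), and the brightest probe set stood for a gene. The build behind the arrays is not given in the sources used here, so RefSeq served for names and gene order only. Genes over log2 5 on at least 3 of 12 arrays, 6163 of 11983, entered a limma fit (version 3.58.1, R 4.3.3) of 4 genotype means on all 12 arrays, with moderated variances with a trend and Benjamini-Hochberg adjustment over all 6163. Calls needed an adjusted p under 0.05 and 2-fold. The functions were tested on simulated data. Where the dimmer side was under the floor on every array, folds were computed after raising values under 5 to 5. They are given as "at least" where the brighter side was over the floor on every array, and are otherwise no lower bound.

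P450 genes over the floor on all 3 arrays of a genotype were named, and those called in any of the 7 comparisons, or among the 5 highest by mean, were given on every array. The members, lists and rules were chosen with earlier results of these data known. Ciao1, Cyp6a22 and the unexpressed genes given by name were chosen after their values were seen. Alternatives were other filters, a floor, centring, cyclic loess, variance models, thresholds, other probe set rules, a replicate block, leaving out each array, and leaving out the arrays with digestive enzyme signal, the last added after its signal was seen.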

Additional observations from a re-analysis of the deposited data

Results flagged for a closer look

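The change from the wild types differed between the mutants for 2 P450 genes of the 2R cluster. Cyp6a9 was 1.23 log2 units higher in Pb/2 than in A2663/v, and Cyp6a17 differed by -1.51. Both are tests of the difference itself (limma), and neither passed without the arrays with digestive enzyme signal.

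The change in the mutants differed with the wild type it was set against for Cyp9f2 and Cyp4g15, which differed between BL15598 and Canton S by -1.15 and -1.01 on the log2 scale.

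A probe set that names both Cyp12d1-d and Cyp12d1-p, insecticide-inducible genes, was left out of the gene tests because it cannot be given to either. It read 4.39, 4.04 and 3.73 in Canton S, 5.30, 4.55 and 5.06 in BL15598, 6.17, 6.70 and 6.25 in A2663/v and 5.98, 6.26 and 6.34 in Pb/2. The lowest mutant array, at 5.98, lay above the highest wild-type array, at 5.30. The probe set that names Cyp12d1-d alone stayed at 2.86 to 2.98 on all arrays.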

How the results depend on the processing

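Of 42 called results, each a P450 gene in a comparison, 22 kept their call under every alternative that gave a value, of 25 run, and 20 lost it under at least 1, with none reversed. Uncalled results were followed in mutants minus wild types only, where there were 14, and 8 of them became calls under at least 1 alternative. For Cyp318a1, Cyp18a1, Cyp4e2, Cyp6a19 and Cyp9f2 this happened only where the minimum fold was dropped. Of the 14, 3 changed sign, all without the arrays with digestive enzyme signal, to 0.017 for Cyp6u1, -0.31 for Cyp6g1 and 0.0082 for Cyp305a1. The cause of these changes was not tested.

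Counts of P450 genes called moved by over 1.5 times as follows. Pb/2 minus Canton S gave 8 of 81 genes without a filter (3.44% of all genes) and 3 of 21 with values under log2 5 raised to 5 (4.69%). BL15598 minus Canton S gave 1 with the filter at log2 6, with the raised values, with median centring, with cyclic loess, at an adjusted p under 0.01 and without the digestive-signal arrays, against 4.25% to 5.19% of all genes. Pb/2 minus A2663/v gave 1 with the raised values (1.61%) and 0 without the digestive-signal arrays (1.17%). A2663/v minus BL15598 gave 7 at an adjusted p under 0.01 (6.93%) and 7 without those arrays (6.46%). The count in all 4 pairs was 2 at an adjusted p under 0.01 (1.82%). Without a minimum fold the counts were 14 in mutants minus wild types (46.9% of all genes), 15 in Pb/2 minus BL15598 (42.8%), 8 in Pb/2 minus Canton S (28.5%), 7 in BL15598 minus Canton S (25.4%) and 4 in Pb/2 minus A2663/v (8.03%).

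Leaving out 1 array at a time gave 7 to 10 calls in mutants minus wild types, 8 to 12 in A2663/v minus BL15598, 4 to 8 in A2663/v minus Canton S, 7 to 10 in Pb/2 minus BL15598, 4 to 7 in Pb/2 minus Canton S, 2 to 3 in Pb/2 minus A2663/v and 3 to 5 in all 4 pairs. BL15598 minus Canton S gave 0 to 2, with 0 without BL15598 replicate 3.

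With the replicate number as a block, the counts were 7, 11, 6, 9, 5, 2 and 2 in the 7 comparisons and 4 in all 4 pairs, as without it. Deviations of same-numbered arrays correlated at -0.53 to 0.37, over 0.1 in 5 of 18 pairs. The labels do not say what the number marks, and these mixed values cannot tell whether same-numbered arrays shared a batch.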
